A study of Mus musculus with 7 samples.

Results

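The sites described here are the peaks of CTCF and of the cohesin subunit Smc1 within 500 kb of the starts of 7 developmental genes, Pou5f1 (which encodes Oct4), Nanog, Sox2, Klf4, Nes (Nestin), Olig1 and Olig2. Members were taken by position alone. A peak entered when any of its bases fell within 500 kb of a start on mm9, and the neighbouring Olig1 and Olig2 were given 1 window, so that there were 6 windows. This gave 403 of 80884 peaks, made up of 218 of 42893 CTCF peaks and 185 of 37991 Smc1 peaks. A peak was shared when it overlapped a peak of the other protein by at least 1 bp, and was otherwise CTCF alone or Smc1 alone. At the window limit, the farthest peak inside lay 499.7 kb from its start (Sox2) and the nearest one outside 506.6 kb (Nes). Both proteins were mapped by ChIP-seq, with 1 library and a rabbit polyclonal antibody each, in neural progenitor cells (NPCs) made from V6.5 embryonic stem cells, a male line of 129SvJae x C57BL/6 background. The progenitors came from embryoid bodies kept 4 days without LIF, then 5 to 7 days of selection in ITSFn medium and 2 to 4 days of growth with laminin and Fgf2 at 10 ng/ml, before fixation in 1% formaldehyde. The same genes were the captured regions of a contact study in these cells and in the parental line, and that contact table, which carries no chromosome positions, was not used here. Peak lists hold no expression values, so the progenitor identity of the cells could not be checked against marker genes. With 1 library per protein and no second condition, no difference below has a replicate check or a test.

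CTCF is a zinc finger protein that binds a long DNA motif, and cohesin is a ring complex, of which Smc1 is a core subunit, that extrudes loops of chromatin and is halted at CTCF sites. Cohesin is also found at active promoters and enhancers without CTCF, where it is loaded with the help of Nipbl and Mediator. Oct4, Nanog, Sox2 and Klf4 are transcription factors of pluripotent cells. Sox2 is also a factor of neural progenitors, Nestin is an intermediate filament protein that marks them, and Olig1 and Olig2 are basic helix-loop-helix factors of the oligodendrocyte and motor neuron lineages.

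A peak of either protein lay within 1 kb of the start at 3 genes, Olig2, Klf4 and Nes. The 250 bases before the start of each are shown, since these are the promoters next to which the proteins were mapped. They are from RefSeq on GRCm38.p6 and are matched by gene symbol (6 of the 7 genes had an entry), so that their positions cannot be set against the mm9 peaks. The positions are chr16:91225300-91225549 on the plus strand for Olig2, chr4:55532476-55532725 on the minus strand for Klf4 and chr3:87970843-87971092 on the plus strand for Nes. Capitals mark CCCTC, the letters that gave CTCF its name, and AGNNGGC, the middle of its longer motif, each on either strand.
Olig2: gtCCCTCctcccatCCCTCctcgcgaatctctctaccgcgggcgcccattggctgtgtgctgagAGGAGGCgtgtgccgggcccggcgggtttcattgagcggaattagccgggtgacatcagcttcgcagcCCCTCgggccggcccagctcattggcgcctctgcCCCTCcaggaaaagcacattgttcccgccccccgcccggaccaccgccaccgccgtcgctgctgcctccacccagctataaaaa
Klf4: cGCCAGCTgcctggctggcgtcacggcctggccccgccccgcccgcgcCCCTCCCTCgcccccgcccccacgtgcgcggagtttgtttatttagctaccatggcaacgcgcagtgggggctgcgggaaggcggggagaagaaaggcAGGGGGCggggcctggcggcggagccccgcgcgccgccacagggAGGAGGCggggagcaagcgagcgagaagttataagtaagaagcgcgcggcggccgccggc
Nes: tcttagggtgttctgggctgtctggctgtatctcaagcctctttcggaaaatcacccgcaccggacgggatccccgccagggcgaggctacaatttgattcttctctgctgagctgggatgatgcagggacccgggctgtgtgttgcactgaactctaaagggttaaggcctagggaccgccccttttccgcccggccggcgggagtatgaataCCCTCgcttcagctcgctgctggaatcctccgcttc
The Olig2 stretch held 4 matches to CCCTC and 1 to AGNNGGC. The Klf4 stretch held 2 and 3, of which the 2 CCCTC matches overlap by a base, and the Nes stretch held 1 and 0. Of 32851 RefSeq promoter stretches of 250 bases, 60.5% held CCCTC and 52.5% held AGNNGGC. Both are thus common letters, and a match is not a binding site. Nor are the stretches given as sequence under a CTCF peak. On mm9, the nearest CTCF peak lay 0.351 kb downstream of the Klf4 start and 0.533 kb before the Nes start. Only at Olig2 did a CTCF peak cover the rounded start. The other stretches held 1 CCCTC and 3 AGNNGGC matches (Sox2), 2 and 1 (Nanog) and 2 and 2 (Pou5f1). GC content ran from 52.0% at Nanog to 74.0% at Klf4.

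Over the 6 windows there were 151 sites with both proteins, 67 with CTCF alone and 34 with Smc1 alone. Of the CTCF peaks, 69.3% were shared (exact 95% binomial interval 62.7% to 75.3%), against 67.8% of the whole list. Of the Smc1 peaks, 81.6% were shared (75.3% to 86.9%), against 76.8% of the whole list. Both shares are close to those of all peaks. Intervals here cover counting error only, and neighbouring peaks are not independent. Each shared CTCF peak had its own Smc1 peak, with a median of 36.0 bp between the 2 centres, near the 42.0 bp of the whole lists. The centres were within 100 bp in 138 of the 151 pairs, and the whole-list share is not given here. The smallest overlap of a shared pair was 198 bp, and 8 peaks called alone lay within 1 kb of the other protein, the closest at 168 bp. These were 7.46% of the CTCF-alone and 8.82% of the Smc1-alone peaks, near the 6.45% and 10.0% of the whole lists.

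**Figure D1:**
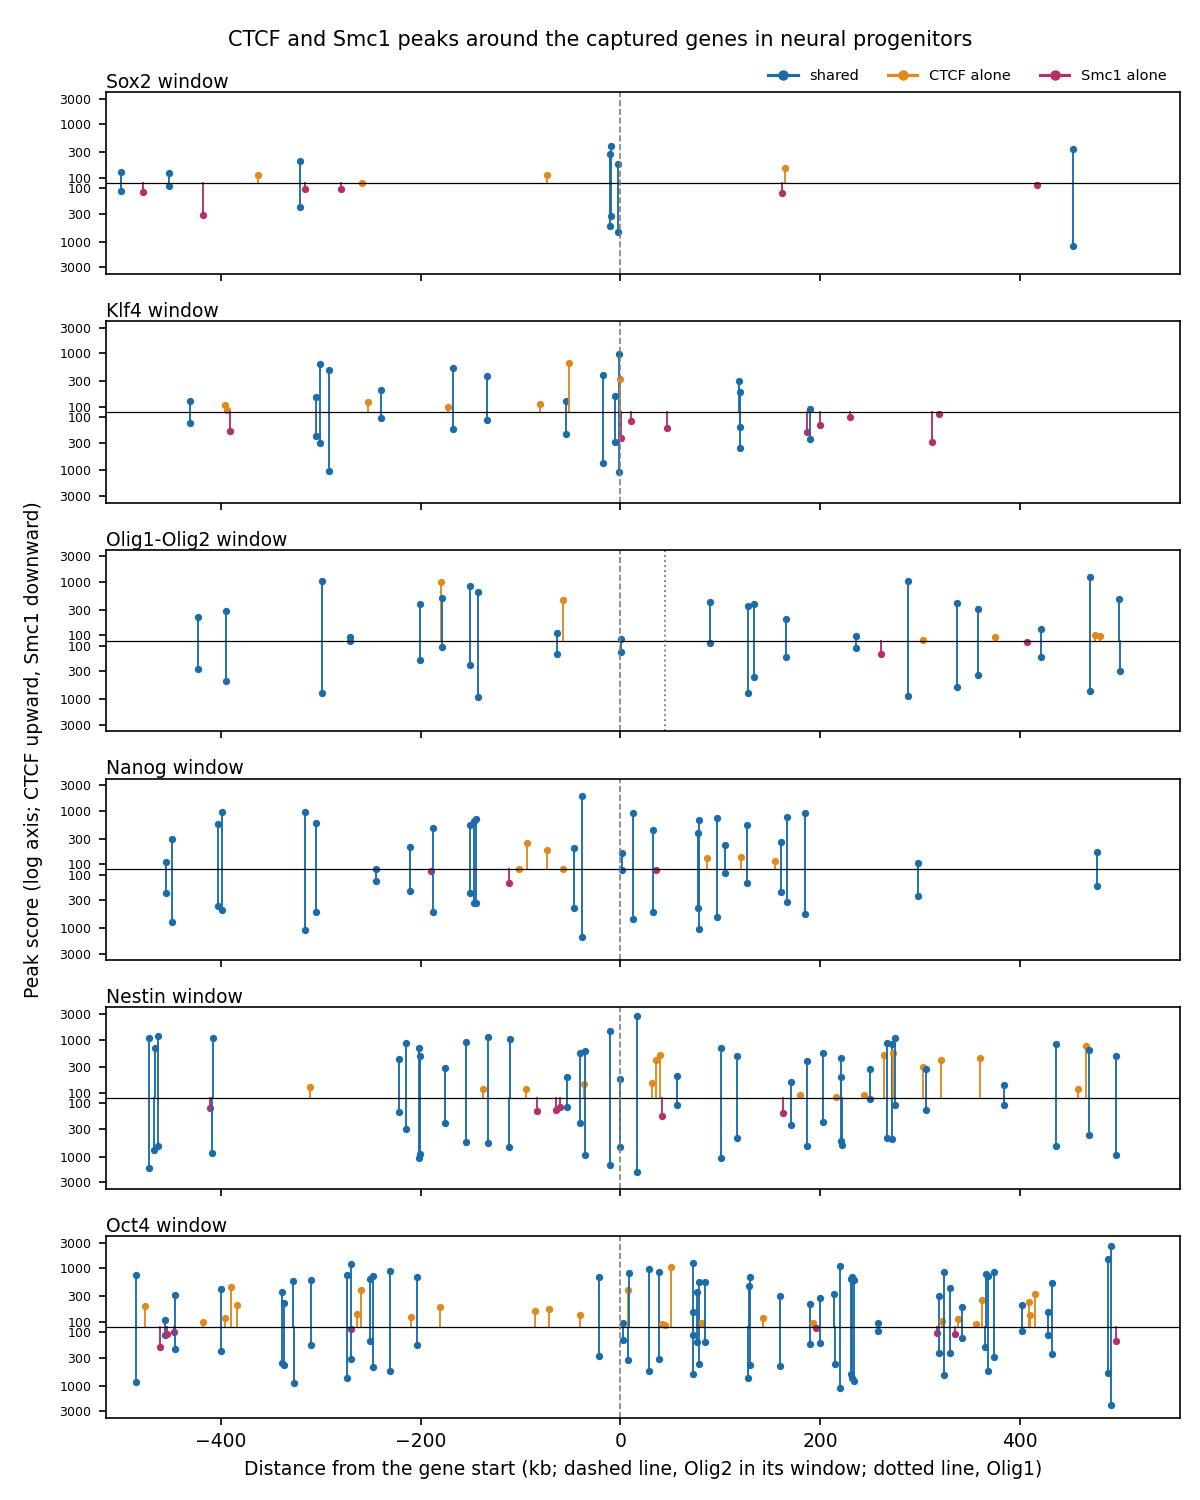
Peaks in the 6 windows by distance of the peak centre from the gene start (kb, lower coordinates to the left), with the authors' peak score on a log axis, CTCF upward and Smc1 downward, coloured by class. The Sox2 window holds 11 CTCF peaks, of which 2 lie to the right of the start, and the Oct4 window holds 73.

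The windows differed widely in how many sites they held. The Sox2 window had 11 CTCF and 13 Smc1 peaks, Klf4 21 and 23, Olig1-Olig2 27 and 23, Nanog 34 and 30, Nestin 52 and 41, and Oct4 73 and 55. Across the genome, 1 Mb tiles with a peak of either protein held a median of 14 CTCF peaks (quartiles 7 and 25) and 14 Smc1 peaks (6 and 22). The Sox2 window was thus below the median tile for both proteins. For CTCF, Klf4 lay between the median and the upper quartile, and the other 4 windows were above the upper quartile. For Smc1, every window but Sox2 was at or above the upper quartile of 22, with Klf4 (23) and Olig1-Olig2 closest to it. The Olig1-Olig2 window is 1044 kb long and held 25.9 CTCF and 22.0 Smc1 peaks per Mb. In the RefSeq table of GRCm38.p6, Sox2 was the only protein-coding gene within 500 kb of itself. There were 3 such genes in the Klf4 neighbourhood, 20 around Nanog, 22 around Olig1-Olig2, 38 around Nes and 62 around Pou5f1, of which 8 were class I histocompatibility genes (H2). The order by genes and the order by CTCF peaks were the same apart from Nanog and Olig1-Olig2, over 6 windows. H2 genes are members of a family with related sequences, which were not compared here. The sources used here do not say how reads with several matches were treated.

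**Figure D2:**
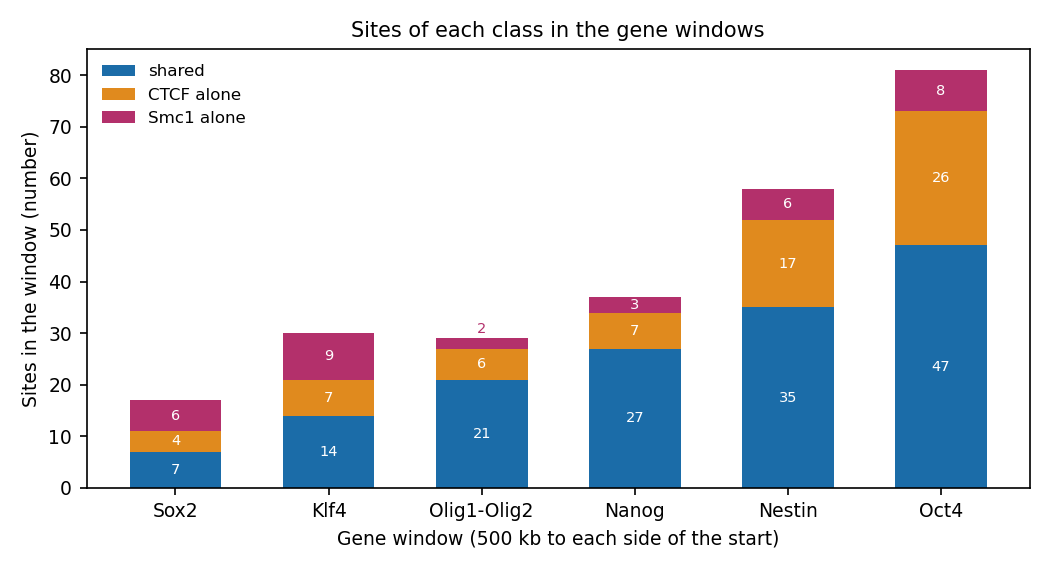
Number of sites of each class in each gene window (stacked bars, with the number in each part). Shared sites run from 7 in the Sox2 window to 47 in the Oct4 window, and Smc1-alone sites from 2 in Olig1-Olig2 to 9 in Klf4.

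The share of CTCF peaks with Smc1 varied little between windows, from 63.6% around Sox2 (30.8% to 89.1%) to 79.4% around Nanog (62.1% to 91.3%). The share of Smc1 peaks with CTCF ranged further. It was 53.8% around Sox2 (25.1% to 80.8%), 60.9% around Klf4 (38.5% to 80.3%), 85.4% around Nes (70.8% to 94.4%), 85.5% around Pou5f1 (73.3% to 93.5%), 90.0% around Nanog (73.5% to 97.9%) and 91.3% around Olig1-Olig2 (72.0% to 98.9%). The Sox2 and Klf4 windows, with the fewest CTCF peaks, had the lowest shares, but all 6 intervals overlap.

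At 6 of the 7 starts a shared site lay within 2.5 kb, and Olig1 was the exception. This distance was chosen after the values were seen, and the farthest of the 6 sites lay at 2.28 kb. For comparison, 12.5% of all bases of the windows lay within 2.5 kb of a shared CTCF peak, from 3.12% around Sox2 to 22.4% around Pou5f1. The share of other gene starts with such a site was not computed, so these genes cannot be set against promoters in general. The starts used were rounded, so that offsets of less than about 1 kb are not resolved. These sites differed in strength. The score is the authors' own value from MACS, larger for a smaller p, and a percentile is the rank of a peak within its own list. Only the Klf4 site reached a score of 200 in both lists. With that minimum, the nearest shared site moved to 9.04 kb from Sox2, 9.68 kb from Nes, 12.4 kb from Nanog, 127 kb from Olig2 and 7.79 kb from Pou5f1. The Smc1 peaks beside Sox2 and Nes passed that minimum without their CTCF partners and would then count as Smc1 alone.

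**Figure D3:**
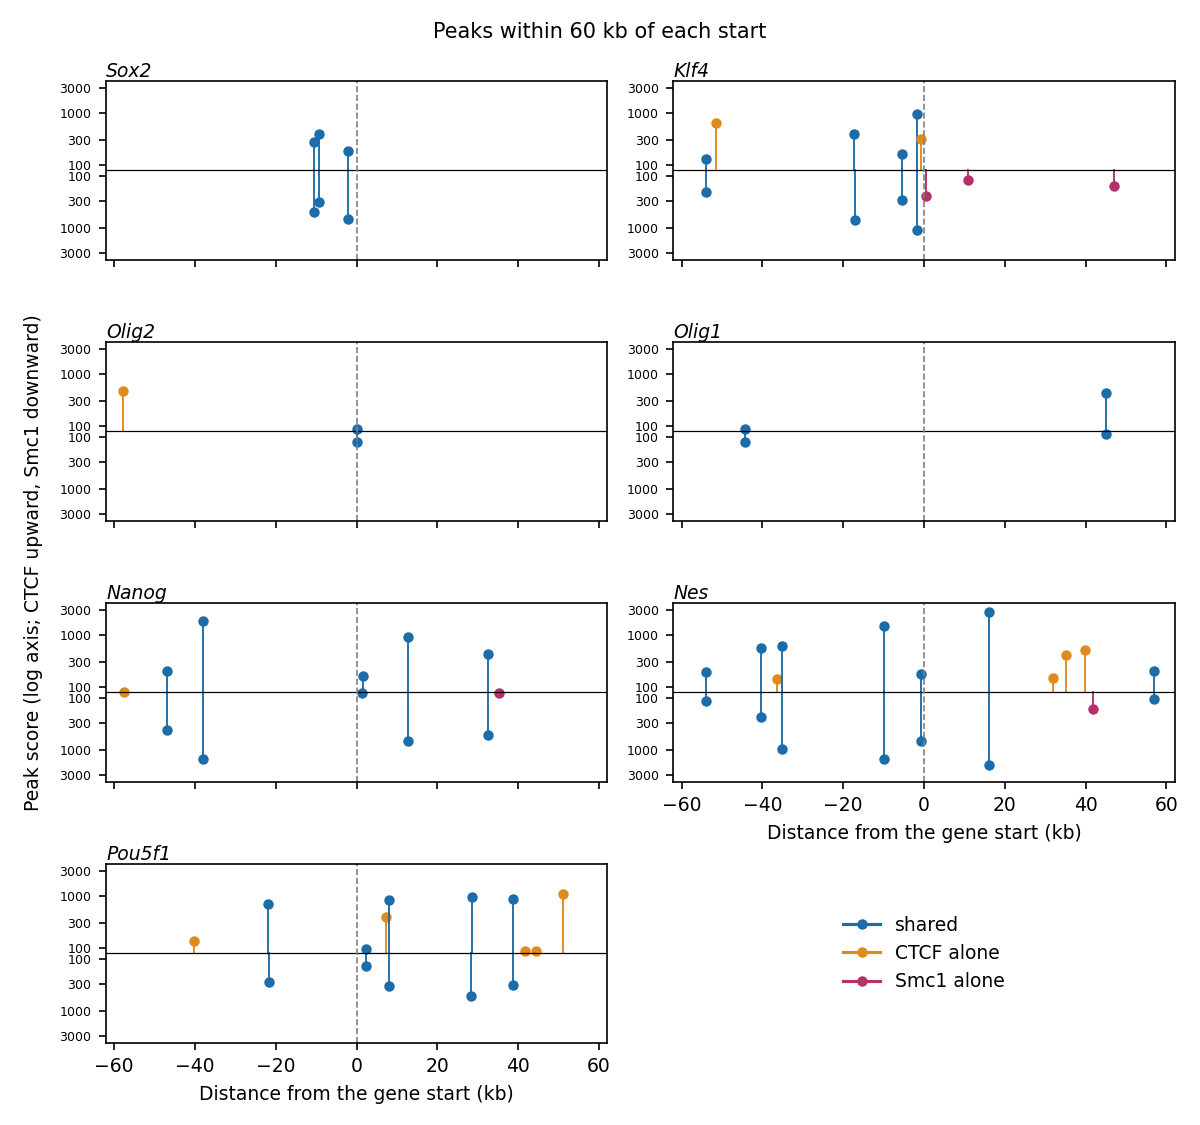
Peaks within 60 kb of each of the 7 starts, drawn as distance of the peak centre (kb) against score on a log axis, CTCF upward and Smc1 downward. A shared site stands beside the start of every gene but Olig1, whose nearest CTCF peaks are at 44.2 kb and 44.9 kb on its 2 sides.

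Pou5f1, the gene of Oct4, had a weak shared site 2.28 kb past its start (chr17:35645281-35645525, CTCF score 96.0, and Smc1 score 140.8 at 2.22 kb). The distance is shorter than the 4746 bases of the gene, and whether it is exonic or intronic was not determined here, as no mm9 annotation was used. A CTCF-alone peak of score 398 followed at 7.06 kb, and a shared site with a CTCF score of 822 and an Smc1 score of 337 at 7.79 kb. Before the start, the nearest peaks of both proteins were a shared pair 21.6 kb away (CTCF score 688, Smc1 score 280). The highest scores of the window for both proteins were at 1 shared site, 491 kb past the start (chr17:36133873-36134433), with a CTCF score of 2635 and an Smc1 score of 2302, both above percentile 99. The stretch of the window without CTCF was at longest 94.95 kb, and ended in a CTCF peak of score 161 before the start (chr17:35462455-35557408). On the same side Smc1 had no peak for 181.6 kb (chr17:35439366-35620971), a stretch with 4 CTCF peaks. The nearest protein-coding genes of RefSeq on that side were H2 genes. Whether reads with several matches left peaks unlisted there was not tested. Of the 73 CTCF peaks of this window, 26 were alone (35.6%, 24.8% to 47.7%), against 32.2% of the whole list.

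Nanog had a shared site 1.33 kb past its start (chr6:122658930-122659296), within the length of the gene. Its scores were low, with 163 for CTCF (percentile 32.2) and 83.9 for Smc1 (percentile 2.76). Stronger shared sites stood on both sides, at 12.4 kb past the start (CTCF score 908, Smc1 score 684) and 37.7 kb before it (CTCF score 1856, Smc1 score 1467). The latter (chr6:122619214-122619947) held the highest score of the window for both proteins. Both lists left the same stretch without a peak, 179 kb long from 298 to 477 kb past the start. The 3 Smc1-alone peaks of the window scored from 81.8 to 145.8, and the nearest lay 35.0 kb past the start.

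Klf4 is read from the minus strand, so lower coordinates are downstream of its start. It was the gene with the strongest site beside the start. A shared site 1.36 kb downstream (chr4:55542889-55543638) had the highest CTCF score (956, percentile 92.8) and the highest Smc1 score (1069, percentile 94.4) of the window. Between it and the start lay a CTCF-alone peak (0.351 kb, score 323), and at the start lay an Smc1-alone peak of 1048 bp (chr4:55544930-55545977, score 249). These neighbours were 0.28 kb apart and became 1 shared site when edges up to 1 kb apart counted as shared. Downstream of the start there were 18 CTCF and 12 Smc1 peaks, of which 1 Smc1 peak was alone. Upstream there were 3 CTCF and 10 Smc1 peaks, of which 7 Smc1 peaks were alone. No CTCF peak was found from 190.1 kb upstream to the window edge, a stretch that held 4 Smc1 peaks. The 7 upstream Smc1-alone peaks scored from 87.4 to 294. The RefSeq table lists no protein-coding gene within 500 kb on that side of Klf4, and its other neighbours there, Rad23b (a DNA repair factor) and Zfp462 (a zinc finger gene), are downstream.

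Sox2 had 3 shared sites in the 10.4 kb before its start, at 2.02, 9.04 and 10.4 kb, and a long empty stretch after it. On the side before the start, Smc1 had no peak for 268.3 kb up to these sites (chr3:34269709-34538051). That was the longest Smc1-free stretch within any window, and it held 2 CTCF-alone peaks, with scores of 80.06 and 110.9. The site nearest the start (chr3:34546684-34546980) had a CTCF score of 185.5 (percentile 37.6) and an Smc1 score of 657 (percentile 82.9). The next peak past the start was an Smc1-alone peak at 161.6 kb (score 121), followed by a CTCF-alone peak at 164.4 kb (score 155). CTCF was thus free for 166.4 kb around the start and for another 288 kb beyond, where the 1 Smc1 peak inside was alone and scored 88.2. The shared site that closed it, at 453 kb (chr3:35002056-35002501), had the highest Smc1 score of the window (1202) with a CTCF score of 344. Past the start there were 2 CTCF and 3 Smc1 peaks, and before it 9 and 10. The highest CTCF score, 397 at the site 9.04 kb before the start, was at percentile 64.5 of its list, and the median CTCF score of the window was 155, against 261 for the whole list.

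Nes had a strong shared site on each side. The shared site 15.8 kb past its start (chr3:87790788-87791403) scored 2746 for CTCF (percentile 99.9) and 1917 for Smc1 (percentile 99.5), the highest of the window for both proteins. On the other side, a shared site 9.68 kb before the start scored 1470 and 1453. Next to the start itself, 0.533 kb before it, was a weaker CTCF peak (chr3:87774019-87774467, score 180, percentile 36.3) with an Smc1 peak of score 658 (percentile 83.0). Past the strongest site came 3 CTCF-alone peaks at 31.6, 34.9 and 39.5 kb, with scores of 151, 411 and 510, and an Smc1-alone peak at 41.6 kb with a score of 169. The window had the highest median CTCF score (488) and Smc1 score (444) of the 6.

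Olig2 had peaks of both proteins at its start, and both were weak. The CTCF peak (chr16:91224974-91225285, score 87.2, percentile 4.03) and the Smc1 peak that overlapped it (score 129, percentile 27.0) could not be placed before or after the rounded start. Neither protein had another peak for 57.4 kb before Olig2 or past this site in the 44.5 kb between the starts of the 2 genes. Olig1 lay in the middle of a stretch of 89.1 kb without a peak of either protein. This stretch ran from the Olig2 site to a shared site 44.9 kb past Olig1 that had a CTCF score of 423 and an Smc1 score of only 88.6. The highest CTCF score of the window (1217) was at a shared site 425 kb past Olig1 (chr16:91694788-91695337), and the highest Smc1 score (905) at one 143 kb before Olig2. The 2 Smc1-alone peaks of this window were 215.6 and 362.9 kb past Olig1.

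By distance from the nearest start, the first 10 kb held 12 CTCF and 11 Smc1 peaks, or 86.2 and 79.0 per Mb searched. From 10 to 50 kb there were 39.6 and 33.7 per Mb, from 50 to 100 kb 45.0 and 28.3, from 100 to 250 kb 37.2 and 34.4, and from 250 to 500 kb 30.7 and 26.0. Peaks of both proteins were densest next to the starts, though each window gave only 1 to 3 peaks of a protein within 10 kb. The density next to other gene starts was not computed. The share of CTCF peaks with Smc1 was 83.3% within 10 kb (10 of 12, 51.6% to 97.9%), 65.0% from 10 to 50 kb (13 of 20, 40.8% to 84.6%), 51.9% from 50 to 100 kb (14 of 27, 32.0% to 71.3%), 79.1% from 100 to 250 kb (53 of 67, 67.4% to 88.1%) and 66.3% from 250 to 500 kb (61 of 92, 55.7% to 75.8%). The shares had no order by distance, and these intervals overlap. The share of Smc1 peaks with CTCF was 90.9%, 76.5%, 82.4%, 85.5% and 78.2% in the 5 bins from the nearest to the farthest. The median CTCF score in these bins was 254, 425.5, 207, 393.5 and 315, and the median Smc1 score was 325.5, 415.5, 154, 244 and 253. For both proteins the median was highest from 10 to 50 kb and lowest from 50 to 100 kb.

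Sharing followed the score closely. CTCF peaks of the windows that scored from 80 to 100 were shared in 7 of 24 cases (29.2%, 12.6% to 51.1%), those from 100 to 200 in 23 of 51 (45.1%), from 200 to 500 in 51 of 66 (77.3%), from 500 to 1000 in 53 of 59 (89.8%) and from 1000 up in 17 of 18 (94.4%). In the whole list the same bands stood at 22.4%, 43.3%, 80.1%, 97.2% and 99.4%. For Smc1, the windows had 8 of 16 shared from 80 to 100 (50.0%), 35 of 58 from 100 to 200 (60.3%), 52 of 55 from 200 to 500 (94.5%) and all 56 peaks of 500 or more. In the whole Smc1 list the bands used for CTCF stood at 40.5%, 61.1%, 90.9%, 99.1% and 99.85%. The median score of shared peaks was 477 for CTCF and 347.5 for Smc1, against 130.5 and 120 for peaks alone. Over the whole lists these medians were 402 and 318, against 128.5 and 113. Peaks alone were thus weaker in both lists, which hold no score under 80, so that a weaker partner would not be listed. The part of this limit in the number of sites called alone was not tested.

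**Figure D4:**
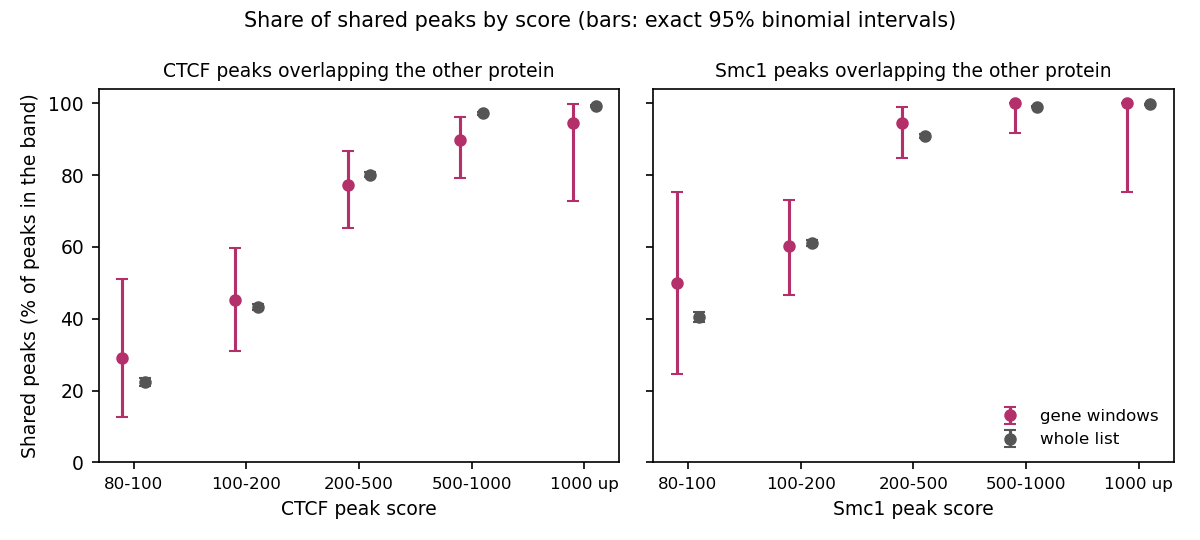
Percentage of CTCF peaks (left) and Smc1 peaks (right) that overlap the other protein, by score band, in the gene windows and in the whole list (points, with exact 95% binomial intervals as bars). The share rises with the score in both, and CTCF peaks from 500 to 1000 in the windows stand at 89.8% against 97.2% in the whole list.

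Strong CTCF peaks without Smc1 were found at 7 of the 77 window peaks that scored 500 or more (9.09%, 3.73% to 17.8%), against 2.29% of such peaks in the whole list. This cut was chosen after the values were seen. The strongest was 50.6 kb past Pou5f1 (chr17:35693636-35694357, score 1077, percentile 95.2), with the nearest Smc1 peak 11.6 kb away. The others lay 180 kb before Olig2 (score 995), 51.2 kb downstream of Klf4 (score 643), and at 39.5, 264, 273 and 465.5 kb past Nes (scores 510, 512, 552 and 752). Apart from the Pou5f1 peak, each of them had an Smc1 peak from 0.71 to 3.02 kb away. For the peak 39.5 kb past Nes this was an Smc1-alone peak. For each of the others it overlapped a different CTCF peak nearby and was counted there as shared. With edges up to 1 kb apart counted, the peaks near Olig2 (0.71 kb) and 273 kb past Nes (0.95 kb) would be shared. The distances of such strong peaks from Smc1 in the whole list are not given here. Of all 67 CTCF-alone peaks of the windows, 43 (64.2%) had Smc1 within 10 kb, against 42.6% in the whole list. Within 1 kb, 5 had it (7.46%), against 6.45% in the whole list. The windows held 30.6 Smc1 peaks per Mb, against a median of 14 in the 1 Mb tiles. The part of this density in the difference was not tested.

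The 34 Smc1-alone peaks had low scores, with a highest value of 318 at a site 418 kb before Sox2 (chr3:34130685-34131243, percentile 61.0, nearest CTCF peak 33.1 kb away). The second highest, 294, lay 312 kb upstream of Klf4 and 121.5 kb from CTCF, and the next, 249, was the one at the Klf4 start. Of the 34, 21 (61.8%) lay within 10 kb of a CTCF peak and 2, both upstream of Klf4, beyond 50 kb. In the whole list these shares were 42.9% and 20.5%. All 8 around Pou5f1 and all 3 around Nanog were within 10 kb of CTCF, against 2 of 6 around Sox2, 4 of 6 around Nes, 4 of 9 around Klf4 and 0 of 2 around Olig1-Olig2. CTCF peaks themselves ran from 11 in the Sox2 window to 73 in the Oct4 window. The mean over all windows was 36.1 per Mb, and the 1 Mb tiles had a median of 14 and an upper quartile of 25. A mean and a median are not like measures. The part of CTCF density in these distances was not tested. Within 50 kb of a start there were 5, of which 3 were at Klf4 and 1 each at Nes and Nanog. Around Sox2, Pou5f1, Olig1 and Olig2 none was nearer than 161.6 kb to a start.

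At shared sites the 2 scores rose together. Over the 151 pairs, log10 scores had a Pearson r of 0.656 and a Spearman rho of 0.629, against 0.640 and 0.643 over the 29066 pairs of the whole lists. The points are sites of the same 2 libraries, and both libraries come from the same kind of cells. CTCF had the higher percentile in 91 pairs (60.3%, 52.0% to 68.1%) and Smc1 in 60, and in the whole lists CTCF ranked higher in 55.0% of pairs. CTCF ranked higher in 35 of 47 pairs in the Oct4 window, 23 of 35 in Nestin, 15 of 27 in Nanog, 10 of 21 in Olig1-Olig2, 3 of 7 in Sox2 and 5 of 14 in Klf4.

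**Figure D5:**
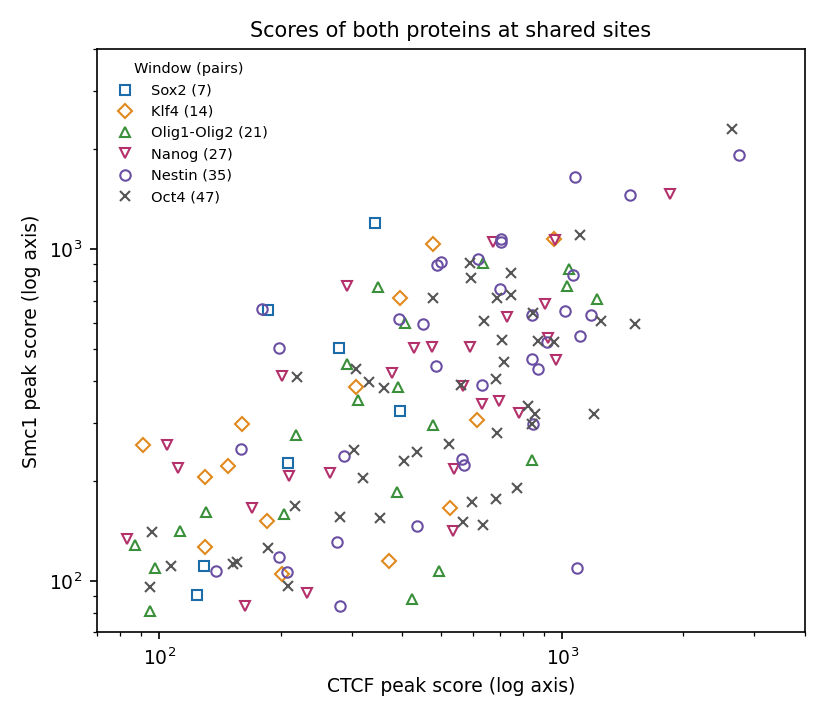
CTCF score against Smc1 score at the 151 shared sites (log axes), with a symbol for each window and the number of pairs in the key. The scores rise together, and the 2 pairs near a CTCF score of 180 and an Smc1 score of 658 are the sites beside Nes and Sox2.

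The sites beside Nes and Sox2 were among the pairs with the largest lead of Smc1. There Smc1 exceeded CTCF by 46.6 percentile points beside Nes and by 45.4 beside Sox2, ranks 2 and 3 of the 151 pairs. Rank 1, at 47.9 points, was a shared site 190 kb upstream of Klf4 (CTCF score 91.0, Smc1 score 256). Only 4 pairs (2.65%, 0.726% to 6.64%) had Smc1 at least 40 points above CTCF, a share near the 2.75% of the whole lists. This limit and these sites were chosen after the values were seen. Beside Pou5f1, Nanog, Klf4 and Olig2 the percentiles of Smc1 and CTCF were 31.0 and 8.85, 2.76 and 32.2, 94.4 and 92.8, and 27.0 and 4.03. At the opposite end, 10 pairs (6.62%, 3.22% to 11.8%) had CTCF at least 40 points above Smc1, against 6.08% of the whole lists. The furthest was 275 kb past Nes, with a CTCF score of 1088 and an Smc1 score of 109, next was the site 44.9 kb past Olig1, followed by one 179 kb before Olig2 (493 and 107), 0.71 kb from the strong CTCF-alone peak there.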

How the data were processed

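Peaks of CTCF and Smc1 in NPCs were taken from the 2 deposited lists, with 1 library per protein. The peak names in the files name MACS. Bowtie and mm9 are named per the submitters' processing notes. Each peak carries a score by the authors, which starts at 80 in both deposited lists and was read as the negative log10 of the MACS p multiplied by 10; no header states this. How the input library entered the peak calls, the MACS version and the sequencing depth are not given in the sources used here. Depth is therefore unknown, and scores were ranked only within a list.

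Overlaps, distances (from a peak's nearest edge), percentiles and exact Clopper-Pearson 95% intervals were computed in Python 3.11.15 with pandas 2.3.3, numpy 2.4.6 and scipy 1.17.1, and the overlap code was tested on made-up peaks. Positions are 1-based. No mm9 genome or annotation was used, so neither peak sequences nor exons are given. Gene counts and promoters are from RefSeq on GRCm38.p6. The genes, windows and classes were chosen with earlier results of these data known. Named peaks are, per window, the nearest of each class to each start, the highest of each protein, Smc1-alone peaks within 50 kb and the longest CTCF-free stretch. Others were chosen after their values were seen. Alternatives were other overlap rules, score minimums and window sizes, and each window left out.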

Additional observations from a re-analysis of the deposited data

How the results depend on the processing

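The 3 counts and 2 shares over the windows stayed within 1.5 times the counts and within the intervals of the shares when the overlap had to cover at least 50% of the shorter peak, when centres had to lie within 200 bp, when edges within 1 kb counted, with a score of at least 100 and with peaks placed by their centre. With a score of at least 200 in both lists there were 98 shared sites and 13 Smc1-alone peaks, and 88.3% of Smc1 peaks were shared, since weak peaks are removed. At that minimum 9 of the 18 counts per window and class moved by over 1.5 times, among them Smc1 alone around Pou5f1 (8 to 0) and Olig1-Olig2 (2 to 0), CTCF alone around Sox2 (4 to 0) and shared sites around Klf4 (14 to 5). Windows of 250 kb gave 90 shared, 36 CTCF-alone and 17 Smc1-alone sites, and windows of 1 Mb gave 229, 113 and 59, since they cover less or more of the genome. Without the Oct4 window 41 CTCF-alone peaks were left, and leaving out any other window moved none of these values that far. The nearest peak of a class to a start was lost or another one in 16 of 21 cases with a score of at least 200 (4 had no peak of the class left) and in 4 of 21 with edges within 1 kb. No paired analysis was possible because each protein has 1 library. The depth of the libraries is unknown, and its part in the weak peaks was not tested.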
